A study of Homo sapiens with 6 samples.

Results

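The high mobility group (HMG) proteins are the most abundant chromatin proteins of the nucleus after the histones, and 10 of their genes were followed here out of 60612 genes in the expression tables. The 10 were taken by symbol: HMGB1, HMGB2 and HMGB3, HMGA1 and HMGA2, and HMGN1 to HMGN5. The proteins of the HMGB family bend DNA through a pair of HMG boxes and help transcription factors and nucleosome remodellers to bind, and HMGB1 is also released from damaged cells as a danger signal. HMGA proteins bind the minor groove of AT-rich DNA through AT-hooks and are abundant in embryonic and tumor cells. HMGN proteins bind the nucleosome core itself and counteract the compaction of chromatin by linker histone H1.

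The tables came from HCT116, a human colorectal carcinoma cell line. HCT116 cells that had received control lentivirus (LV-NC, 3 libraries) were compared with HCT116 cells infected with a lentivirus that overexpresses SNORA28 (LV-SNORA28, 3 libraries). SNORA28 belongs to the H/ACA small nucleolar RNAs, which guide pseudouridylation of other RNAs. Both groups carried lentiviral vector and, per the methods, were collected at the same time after infection. All libraries came from 1 cell line, and no source used here says whether replicates were separate cultures, so that p-values measure only the spread between these libraries. Levels are in FPKM, a fragment number corrected for the length of the transcript and for the fragments mapped in the library. The members were chosen by name with their FPKM differences in this same comparison in view, so the differences below describe them and are not independent evidence about the family.

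SNORA28 itself measured 0.92, 0 and 0.64 FPKM across the LV-NC libraries against 15.01, 13.66 and 15.2 FPKM across the LV-SNORA28 libraries, higher in the libraries labelled as overexpressing it. Mitochondrial genes took 44.4% ± 2.83 of summed FPKM in LV-NC and 37.3% ± 1.25 in LV-SNORA28 (SD, n = 3), and their part in the differences below was not tested. Of the 12 epithelial markers 9 had a mean of at least 1 FPKM, with KRT19 and KRT18 highest. Among the intestinal markers, CDX2 was at 3.47 to 4.33 FPKM, while CDX1, VIL1 and LGALS4 were at or near 0. Of 13 markers of other cell types, 10 were below 1 FPKM, the fibroblast genes DCN, LUM and COL1A2 were at 0 in all libraries, and the summed level of the 13 was 5.76 to 8.79 FPKM in LV-NC and 8.29 to 9.50 FPKM in LV-SNORA28. The remaining 3 were COL1A1 (log2 fold change -0.02), the macrophage marker CD68 (0.95 to 2.07 FPKM in LV-NC and 2.27 to 4.12 FPKM in LV-SNORA28, log2 fold change 0.64, adjusted p = 0.134 by limma) and DES.

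Several HMG genes have many processed pseudogenes, retrotransposed copies of their spliced mRNA, and the copies bear on how reads are shared out between a gene and its copies. Copies were taken by symbol, a member's name followed by P and a number, which gave 48 for HMGB1, 38 for HMGN2, 32 for HMGN1, 29 for HMGB3 and 8 for HMGA1, and at most 1 for each of the other members. All are classed as pseudogenes in GENCODE except HMGB1P1, classed as protein-coding, and HMGA1P4, classed as lncRNA, and they are called pseudogenes by their symbols below. Windows of 120 coding bases are shown (GRCh38, GENCODE v44), because they show how little separates the genes from the copies with the highest FPKM. Bases that differ from the gene are in capitals. HMGB1 coding bases 117 to 236 lie on the minus strand within chr13:30463267-30463564, interrupted by an intron, HMGB1P5 is at chr3:22381935-22382054 on the plus strand and HMGB1P6 at chr15:71165182-71165301 on the minus strand.
HMGB1: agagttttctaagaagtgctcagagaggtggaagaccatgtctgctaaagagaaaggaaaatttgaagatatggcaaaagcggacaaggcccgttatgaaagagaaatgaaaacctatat
HMGB1P5: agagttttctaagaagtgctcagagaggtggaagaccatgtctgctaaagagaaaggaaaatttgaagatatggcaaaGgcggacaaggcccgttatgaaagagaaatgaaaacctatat
HMGB1P6: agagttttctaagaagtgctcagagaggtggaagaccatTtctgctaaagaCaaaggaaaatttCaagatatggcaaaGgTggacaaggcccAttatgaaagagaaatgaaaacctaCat

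The HMGB1P5 window differed from HMGB1 at 1 base of 120 and the HMGB1P6 window at 7. Over the aligned coding sequence, HMGB1P5 was 99.5% and HMGB1P6 98.6% identical to HMGB1, whereas the functional paralogs HMGB2 and HMGB3 were 78.6% and 76.2% identical to it. Of all stretches of 75 bases in the HMGB1 coding sequence 73.4% were found letter for letter in 1 or more of the pseudogenes of the HMG genes, against 3.49% of those in its 3′ UTR. The first 120 coding bases of HMGN2 (plus strand, within chr1:26472613-26474114, spanning introns) are shown with HMGN2P5 (chr15:29730713-29730832, plus strand) and with HMGN4 (chr6:26545207-26545326, plus strand), a functional member of the family that arose as a retrotransposed copy of HMGN2.
HMGN2: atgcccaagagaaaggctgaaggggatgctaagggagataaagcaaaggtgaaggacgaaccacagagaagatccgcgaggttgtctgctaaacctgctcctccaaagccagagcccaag
HMGN2P5: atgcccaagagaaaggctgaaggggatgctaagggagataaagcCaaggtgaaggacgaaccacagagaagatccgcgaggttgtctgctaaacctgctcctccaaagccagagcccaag
HMGN4: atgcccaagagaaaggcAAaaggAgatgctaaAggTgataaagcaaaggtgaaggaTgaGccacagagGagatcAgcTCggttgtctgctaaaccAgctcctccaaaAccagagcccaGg

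The HMGN2P5 window differed from HMGN2 at 1 base and the HMGN4 window at 14. Of the 75-base stretches in the HMGN2 coding sequence 77.0% were shared with a pseudogene, compared with 32.7% for HMGN1, 7.98% for HMGB3, 7.29% for HMGA1 and 0 for HMGB2, HMGA2, HMGN3, HMGN4 and HMGN5. Over the whole mRNA, shared stretches of 75 bases made up 12.1% for HMGB1, 10.2% for HMGN2 and 6.18% for HMGN1, and stretches of 150 bases, the read length, 5.03%, 4.41% and 0, respectively. The values of these 3 genes are given below also together with the copies.

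The HMG genes spanned more than 2 orders of magnitude in level. HMGA1 was the highest, with a mean of 1017 FPKM over the 6 libraries, and ranked 27 among the 12076 genes tested, those averaging 1 FPKM or more. HMGB2 followed with 148 FPKM. HMGN2 (57.3 FPKM), HMGB1 (46.1), HMGN4 (41.6), HMGN3 (38.1), HMGN1 (35.0) and HMGB3 (29.9) formed a middle group in which the library ranges of all neighbours overlapped. HMGA2 (11.9 FPKM) and HMGN5 (2.70 FPKM) were lowest, and neither overlapped its neighbour above in any library. HMGA1 alone made up 73.1% ± 2.42 of the FPKM summed over the 10 genes in LV-NC and 69.4% ± 2.91 in LV-SNORA28, and these library values overlapped.

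**Figure D1:**
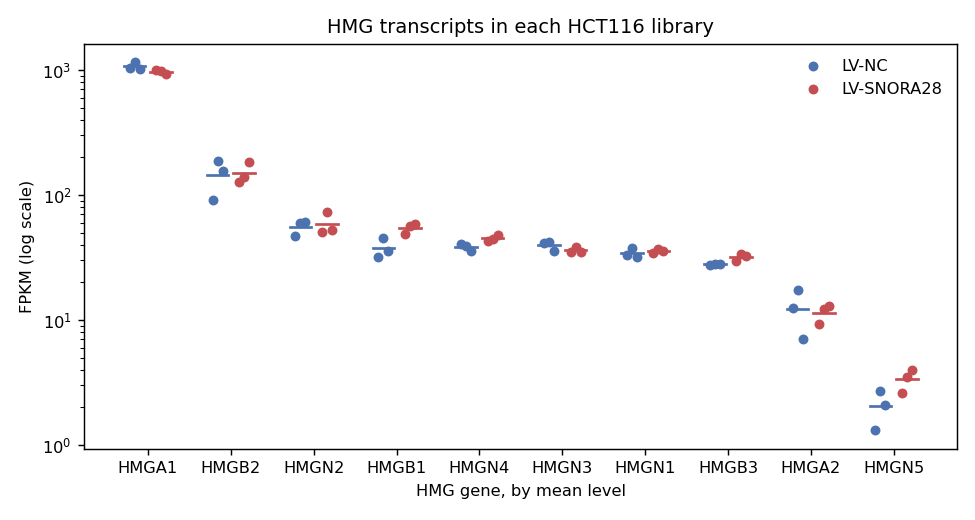
FPKM of the 10 HMG genes on a log axis, ordered by mean level; each point is 1 library (LV-NC blue, LV-SNORA28 red) and each horizontal line a group mean. HMGA1 lies near 1017 FPKM and HMGN5 near 2.70 FPKM, and for most genes the points of the groups lie close to or among each other.

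With SNORA28 overexpression, none of the 10 HMG genes passed the test, although HMGB1, HMGB3 and HMGN4 were higher in every LV-SNORA28 library than in any control. In bulk RNA, a different share of cells and a different amount of RNA per cell cannot be told apart. In the fit over all 12076 genes (limma on log2(FPKM + 1), Benjamini-Hochberg adjusted p below 0.05), 0 of the 10 were called, against 8.91% of all genes, and the percentages called higher and lower in LV-SNORA28 were 6.81% and 2.10%. Before adjustment, 28.0% of all genes reached p below 0.05, among them 4 members, HMGB1, HMGB3, HMGN4 and HMGN5, each with a higher mean in LV-SNORA28. When p below 0.05 before adjustment and a fold change above 1.5 were both required, as in the screen used in the study, 0 members were counted, against 3.79% of all genes. In 4 members the library values of the groups did not overlap (HMGB1, HMGB3 and HMGN4 higher, HMGA1 lower in LV-SNORA28), which held for 35.1% of all genes. The median log2 fold change of the 10 was 0.07, beside 0.09 over all genes, and their median absolute log2 fold change was 0.135, beside 0.154. Quantile normalization moved the all-gene median to -0.00127 and the calls over all genes from 822 higher and 254 lower to 451 higher and 375 lower, so small directions below depend on the scaling.

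**Figure D2:**
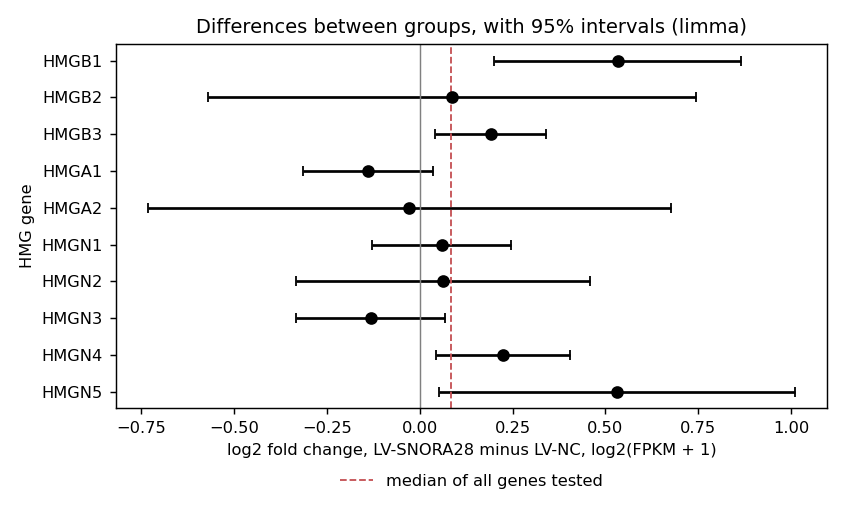
Log2 fold change (LV-SNORA28 minus LV-NC, on log2(FPKM + 1)) of each HMG gene as a point with its 95% interval from limma; the dashed line is the median of all genes tested, 0.09. The intervals of HMGB1, HMGB3, HMGN4 and HMGN5 lie above 0, and those of HMGB2 and HMGA2 are the widest.

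Among the DNA-bending HMGB proteins, HMGB1 had the largest log2 fold change of all members, level with HMGN5 at 0.53. HMGB1 (ENSG00000189403, chr13:30456704-30617597, minus strand) gave 32.12, 45.43 and 35.51 FPKM in the 3 controls and 48.5, 56.27 and 59.01 FPKM in the 3 LV-SNORA28 libraries. Every LV-SNORA28 library was above every LV-NC library, with LV-NC 2 closest to the other group. The means were 37.7 ± 6.92 and 54.6 ± 5.45 FPKM (SD, n = 3), a ratio of 1.45, and the log2 fold change was 0.53 (SE 0.14, 95% interval 0.20 to 0.87, adjusted p = 0.0631 by limma), which missed the threshold. Without LV-NC 2 the log2 fold change was 0.67 and the adjusted p 0.0382, the only leave-one-out fit in which a member was called. HMGB1 is also the member with the most FPKM under its pseudogenes, and with these added the log2 fold change was 0.23 (adjusted p = 0.282). FPKM divides by length, so a fragment under a short copy weighs more in that sum than a fragment of HMGB1. HMGB1P6 has 646 bases and HMGB1P5 1210, against 5456 in the HMGB1 mRNA. The value is therefore not that of the fragments combined.

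HMGB2 (ENSG00000164104, chr4:173331376-173334432, minus strand), the paralog typical of proliferating cells, had levels of 91.57, 188.3 and 156.64 FPKM under LV-NC and 127.48, 138.93 and 183.06 FPKM under LV-SNORA28. All 3 LV-SNORA28 values lay within the LV-NC range, whose highest library was 2.06 times its lowest. The log2 fold change was 0.09 (SE 0.27, 95% interval -0.57 to 0.74, adjusted p = 0.868), and it turned to -0.21 without LV-NC 1 and to -0.07 without LV-SNORA28 3. The residual spread of HMGB2 exceeded that of 94.8% of the genes tested, so that its interval leaves room for a change of the size seen in HMGB1 in either direction.

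HMGB3 (ENSG00000029993, chrX:150980509-150990771, plus strand), a family member expressed mainly in embryonic and progenitor cells, behaved in the opposite way with respect to spread. It read 27.77, 28.04 and 27.8 FPKM with LV-NC, compared with 29.87, 33.57 and 32.59 FPKM when SNORA28 was overexpressed. The LV-NC libraries were within 1.01 times of each other, and all LV-SNORA28 libraries were higher. The log2 fold change of HMGB3 was 0.19 (SE 0.06, 95% interval 0.04 to 0.34, adjusted p = 0.107), and 0.10 with quantile normalization.

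Summed over the 3 genes, HMGB transcripts amounted to 211 ± 55.7 FPKM in LV-NC and 236 ± 35.0 FPKM in LV-SNORA28, a difference smaller than the spread between libraries. Shares within this sum do not depend on library scaling, and how often shares of this kind separate over all genes was not computed. HMGB1 took 18.2% ± 2.64 in LV-NC and 23.2% ± 1.58 in LV-SNORA28, and the groups did not overlap, with 21.2% in the highest LV-NC library and 21.5% in the lowest LV-SNORA28 library. The share of HMGB2 was 67.9% ± 6.43 and 63.1% ± 3.13, respectively, with overlapping libraries.

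Of the AT-hook proteins, HMGA1 was the only HMG gene whose LV-SNORA28 libraries were all below the LV-NC libraries. HMGA1 (ENSG00000137309, chr6:34236873-34246231, plus strand) measured 1029.83, 1148.02 and 1020.21 FPKM across the LV-NC libraries against 998.48, 981.17 and 922.49 FPKM across the LV-SNORA28 libraries. The gap between the groups was small against their ranges, and the ratio of the means was 0.908. The log2 fold change was -0.14 (SE 0.07, 95% interval -0.31 to 0.04, adjusted p = 0.270). It was 0.04 with quantile normalization and -0.17 with libraries scaled to their non-mitochondrial FPKM sum (adjusted p = 0.183 by limma). The direction for HMGA1 thus depended on which scaling was used. Without LV-NC 2 the log2 fold change was -0.08.

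HMGA2 (ENSG00000149948, chr12:65824460-65966291, plus strand), the embryonic member of the family that is re-expressed in many carcinomas, gave 12.38, 17.34 and 7.09 FPKM in the 3 controls and 9.21, 12.21 and 12.9 FPKM in the 3 LV-SNORA28 libraries. The highest and lowest of the 6 were both LV-NC libraries, 2.45-fold apart. The log2 fold change was -0.03 (SE 0.29, 95% interval -0.73 to 0.68, adjusted p = 0.964), and it changed sign when LV-NC 1, LV-NC 2 or LV-SNORA28 1 was left out. HMGA2 overlaps the antisense gene RPSAP52, listed at 1.42 to 2.87 FPKM, and HMGA2-AS1, at 0.14 to 0.51 FPKM. The libraries were built with a strand-marking protocol, but whether strand was used in counting is not given in the sources used here.

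HMGA2 is the classic target of the let-7 microRNAs, which bind its long 3′ UTR, and LIN28 proteins block let-7 maturation. The mature let-7a (RefSeq, GRCh38.p14, chr9:94175962-94175983) is shown with its seed, bases 2 to 8, in capitals, beside the 4 stretches of the HMGA2 3′ UTR (plus strand, GRCh38) that hold the letters CTACCTC complementary to the seed, in capitals; they lie at chr12:65963291-65963320, chr12:65964526-65964555, chr12:65964938-65964967 and chr12:65965791-65965820.
hsa-let-7a-5p: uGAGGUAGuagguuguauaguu
HMGA2 site 1: agggggcgccaacgttcgatttCTACCTCa
HMGA2 site 2: aatatatccccactactcaataCTACCTCt
HMGA2 site 3: ggactaattgacttgcaaagacCTACCTCc
HMGA2 site 4: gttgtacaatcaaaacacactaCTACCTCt

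HMGA1 held 1 such match in its 3′ UTR and the other 8 members 0, and 10.8% of the 10407 tested genes that have a MANE transcript with a 3′ UTR held at least 1 (only the transcript strand was searched). These are matches of letters, and let-7 was not measured in these poly(A) libraries. Of 9 genes of the LIN28, IGF2BP and let-7 axis 4 were tested, and IGF2BP3, an RNA-binding protein known to stabilize HMGA2 mRNA, rose from 7.12 ± 0.416 to 8.97 ± 0.308 FPKM (log2 fold change 0.30, SE 0.07, adjusted p = 0.0452), although it was not called when any 1 library was left out. The median log2 fold change of the 4 was 0.17, with 1 called higher and 0 lower, and 4 genes are too few to compare with the share of all genes. LIN28B was at most 0.07 FPKM in every library. Together HMGA1 and HMGA2 summed to 1078 ± 75.8 FPKM in LV-NC and 979 ± 38.3 FPKM in LV-SNORA28, nearly all of it HMGA1.

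Of the 5 nucleosome-binding HMGN genes, HMGN4 had values that did not overlap between the groups. HMGN4 (ENSG00000182952, chr6:26538366-26546933, plus strand) had levels of 40.41, 39.11 and 35.43 FPKM under LV-NC and 42.47, 44.46 and 47.77 FPKM under LV-SNORA28. The groups did not overlap, with 40.41 and 42.47 FPKM as the closest libraries. The log2 fold change of HMGN4 was 0.22 (SE 0.08, 95% interval 0.04 to 0.40, adjusted p = 0.113).

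HMGN5 (ENSG00000198157, chrX:81113699-81201913, minus strand), a member with a long acidic tail, was the lowest of the 10, with 1.31, 2.7 and 2.11 FPKM under LV-NC against 2.59, 3.49 and 3.98 FPKM under LV-SNORA28. LV-NC 2 was slightly above LV-SNORA28 1, and the other libraries separated. The means of 2.04 ± 0.698 and 3.35 ± 0.705 FPKM gave the largest ratio of the 10 genes, 1.64, but the log2 fold change on the log2(FPKM + 1) scale, which understates low genes, was 0.53 (SE 0.20, 95% interval 0.05 to 1.01, adjusted p = 0.144). Leaving out LV-NC 1 lowered it to 0.35, a change of over 1.5 times. With a pseudocount of 0.1 it was 0.72, and HMGN5 then met the study's threshold, though not an adjusted p below 0.05 (0.152).

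HMGN1 (ENSG00000205581, chr21:39342315-39349647, minus strand), whose gene lies on the chromosome that is trisomic in Down syndrome, read 33.17, 37.88 and 31.87 FPKM with LV-NC, compared with 34.43, 36.87 and 35.78 FPKM when SNORA28 was overexpressed, and the LV-SNORA28 libraries lay within the LV-NC range. Its log2 fold change was 0.06 (95% interval -0.13 to 0.25, adjusted p = 0.669), -0.01 with quantile normalization, 0.13 without LV-NC 2 and 0.0091 without LV-NC 3. HMGN2 (ENSG00000198830, chr1:26472440-26476642, plus strand), the nearest relative of HMGN4, measured 46.76, 59.68 and 61.02 FPKM across the LV-NC libraries against 51, 72.75 and 52.41 FPKM across the LV-SNORA28 libraries. The highest HMGN2 value was LV-SNORA28 2 and the lowest LV-NC 1, and the log2 fold change of 0.06 (95% interval -0.33 to 0.46, adjusted p = 0.840) became -0.01 with quantile normalization, -0.06 without LV-NC 1 and -0.10 without LV-SNORA28 2.

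HMGN3 (ENSG00000118418, chr6:79201245-79234689, minus strand), which is highly expressed in the eye and in endocrine tissue, gave 41.57, 42.35 and 35.75 FPKM in the 3 controls and 34.93, 38.63 and 35.18 FPKM in the 3 LV-SNORA28 libraries. The groups overlapped for HMGN3 through LV-NC 3, and the log2 fold change was -0.13 (95% interval -0.33 to 0.07, adjusted p = 0.357). It was -0.21 without LV-NC 3 and -0.09 without LV-NC 2. As shares of the HMGN sum, HMGN3 took 23.4% ± 1.98 in LV-NC and 20.3% ± 0.736 in LV-SNORA28 and HMGN5 1.19% ± 0.349 and 1.87% ± 0.363, without overlap in either case. How often shares within a family sum separate over all genes was not computed. The HMGN sum itself was 170 ± 9.94 and 179 ± 15.7 FPKM.

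The pseudogenes of the HMG genes carried a large part of the FPKM for some members. The copies with the highest FPKM are shorter than the mRNAs of their genes, so their part of the FPKM can exceed their part of the fragments. Of 157 genes with such symbols, 70 were above 0 in at least 1 library and 12 had a mean of at least 1 FPKM. HMGB1P6 (chr15:71164770-71165415, minus strand) had levels of 117.26, 164.79 and 198.15 FPKM under LV-NC and 152.74, 228.47 and 133.18 FPKM under LV-SNORA28, above HMGB1 itself in all 6 libraries. It overlaps the annotated lncRNA gene THSD4-AS1 on the same strand, which was listed at 0 in all 6 libraries. HMGB1P5 (chr3:22381720-22382929, plus strand) read 60.96, 58.5 and 40.18 FPKM with LV-NC, compared with 57.85, 46.77 and 103.01 FPKM when SNORA28 was overexpressed. Neither differed beyond the spread between libraries (log2 fold change 0.09, adjusted p = 0.847, and 0.32, adjusted p = 0.546, respectively). HMGB1P5, HMGB1P6 and the HMGB1 gene did not rise and fall together across libraries, since LV-SNORA28 2 was highest for HMGB1P6 and LV-SNORA28 3 for HMGB1P5 and HMGB1.

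HMGN1P38 (chr15:92711808-92712110, plus strand) was the 1 gene called among the 12, and it was lower in LV-SNORA28. Of all genes 8.91% were called and 2.10% were called lower, and 1 call among 12 is too few to compare. The groups did not overlap in 3 of the 12, each lower in LV-SNORA28, beside 35.1% of all genes in either direction. The level of HMGN1P38, 25.05, 29.05 and 24.09 FPKM in the LV-NC libraries, fell to 18.98, 20.79 and 19.21 FPKM in LV-SNORA28, with no overlap (log2 fold change -0.39, SE 0.09, adjusted p = 0.0423). The call was lost when any 1 library was left out, with adjusted p between 0.0635 and 0.130, while its log2 fold change stayed between -0.44 and -0.31. HMGN1P38 shares 98.3% of its bases with the HMGN1 coding sequence. Of stretches of 75 bases, 10.9% of those in HMGN1P38 and 0% of those in HMGN1P36 were found in HMGN1. HMGN2P5 (19.31, 22.23 and 23.05 FPKM in LV-NC, 14.6, 18.09 and 18.87 FPKM in LV-SNORA28) and HMGN1P36 (4.59 ± 0.332 and 3.56 ± 0.188 FPKM) also had lower values in every LV-SNORA28 library, but were not called (log2 fold change -0.31, adjusted p = 0.134, and -0.29, adjusted p = 0.0646). HMGN2P5 moved to -0.21 without LV-SNORA28 1, and HMGN1P36 was called with quantile normalization (-0.39, adjusted p = 0.0493). HMGA1P8, HMGB1P10 and HMGA1P3 overlapped between groups, with log2 fold changes of 0.15, 0.25 and 0.04. By position, HMGN1P38, HMGN2P5 and HMGN1P36 overlap FAM174B, TJP1 and TMEM131, respectively, on the opposite strand. HMGB1P6 and HMGB1P10 also overlap genes on the opposite strand, THSD4 and TPST2. HMGA1P8 overlaps C2orf81 on the same strand. Whether strand was used in counting is not given in the sources used here.

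Because a share within a gene and its copies does not depend on library scaling, the pseudogene share was computed per library. Pseudogenes of HMGN1 took 50.4%, 49.8% and 50.6% of the combined FPKM in LV-NC and 43.1%, 42.8% and 41.8% in LV-SNORA28, so that the groups were separated by far more than the spread within them. For HMGN2 the pseudogene share was 32.0% ± 0.741 in LV-NC and 27.0% ± 2.88 in LV-SNORA28, again without overlap. For HMGB1 it was 85.5% ± 1.89 and 82.0% ± 1.55, with overlap between LV-NC 2 and LV-SNORA28 2. The share for HMGA1 went the other way, 1.09% ± 0.0801 in LV-NC and 1.28% ± 0.112 in LV-SNORA28, also without overlap. HMGA1P8 and HMGA1P3, the HMGA1 copies of highest FPKM, had 0% of their 75-base stretches in HMGA1. That for HMGB3 was 4.13% ± 2.04 and 2.87% ± 0.497, with overlap. How often such shares separate over all genes was not computed. With the copies added to their genes, a setting chosen after seeing the data, HMGN1 had a log2 fold change of -0.15 (adjusted p = 0.258) and HMGN2 of -0.04 (adjusted p = 0.893), so that for both the sign differs from that of the gene alone. FPKM divides by length, so a fragment under a short copy weighs more in such a sum than a fragment under its gene. HMGN1P38 has 303 bases and the HMGN1 mRNA 1271. The part of this weighting in the change of sign was not tested. Whether reads of the genes were counted under the copies was not tested.

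**Figure D3:**
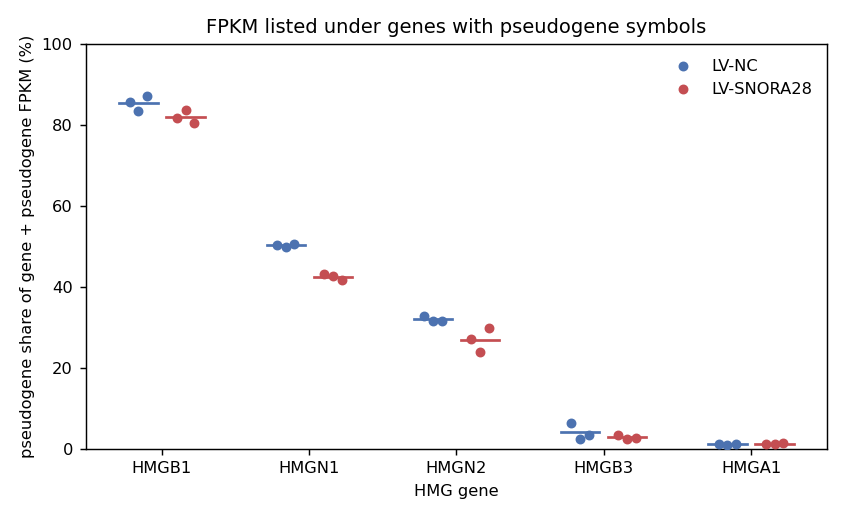
Share of the FPKM of a gene plus its pseudogenes that was listed under the pseudogenes, in percent, for the members with at least 8 copies by symbol; each point is 1 library and each line a group mean. HMGB1 lies above 80% in all 6 libraries, HMGN1 near 50.3% in LV-NC and 42.6% in LV-SNORA28, and HMGB3 and HMGA1 are close to 0. The shares are of FPKM, which is corrected for length, and not of fragments.

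The genes whose library profile was most like that of HMGB1 were CACYBP, a ubiquitin ligase adaptor (Euclidean distance 0.0837 between centred log2 profiles over 6 libraries), DECR1, a mitochondrial enzyme of fatty acid oxidation (0.133), and the lncRNA ENSG00000280206 (0.165), where the median over all genes tested was 0.780. CACYBP measured 18.33, 26.81 and 21.29 FPKM across the LV-NC libraries against 28.56, 31.9 and 33.3 FPKM across the LV-SNORA28 libraries, with LV-NC 2 highest among the controls as in HMGB1. The profiles share libraries and scaling, and the resemblance is a description.

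Other chromatin genes were compared as lists. Of 34 other HMG-box proteins 23 were tested, with 0 called higher and 1 lower, where 6.81% of all genes were called higher and 2.10% lower: UBTF, the HMG-box factor of ribosomal RNA gene transcription, fell from 19.5 ± 2.53 to 14.5 ± 0.107 FPKM (log2 fold change -0.40, SE 0.09, adjusted p = 0.0499). This call was lost when any 1 library was left out. Of 7 linker histone genes, whose proteins compete with HMGN and HMGB proteins for nucleosomes, 3 were tested and 1 was called: H1-2 rose from 7.38 ± 0.883 to 11.8 ± 0.254 FPKM (log2 fold change 0.62, SE 0.09, adjusted p = 0.0128), but was not called without LV-SNORA28 2 (adjusted p = 0.0517) or without LV-SNORA28 3 (0.0559). The RNA was selected with oligo(dT), so H1-2 RNA without a poly(A) tail would be missed. Of 18 histone chaperones all were tested and 1 was called, ASF1A, which rose by 0.39 on the log2 scale (SE 0.08, adjusted p = 0.0308) and was not called when any 1 library was left out. For the HMG-box proteins and the chaperones, 1 of 23 and 1 of 18 were close to the share of all genes, and 3 tested linker histones are too few to compare. The medians over the tested genes of these 3 lists were 0.11, 0.30 and 0.11, beside 0.09 over all genes.

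Of 21 other architectural chromatin proteins 20 were tested and 2 were called, both higher, the DNA topoisomerases TOP2A and TOP2B. This was 10%, beside 6.81% of all genes called higher. TOP2A, an enzyme of S and G2 phase, gave 19.96, 18 and 21.49 FPKM in the 3 controls and 29.66, 30.51 and 34.85 FPKM in the 3 LV-SNORA28 libraries (log2 fold change 0.65, SE 0.09, adjusted p = 0.0127), and it stayed called in all 14 alternative settings. TOP2B rose by 0.32 on the log2 scale (SE 0.07, adjusted p = 0.0440) and was not called when any 1 library was left out. Among 20 proliferation markers, which include TOP2A, 7 were called higher and 0 lower, or 35% against 6.81% of all genes, with a median log2 fold change of 0.32. CCNB1, the mitotic cyclin B1, rose from 51.0 ± 4.42 to 73.5 ± 0.656 FPKM (log2 fold change 0.52, SE 0.07, adjusted p = 0.0128) and was not called without LV-SNORA28 2 or 3. The count of 7 fell to 2 without LV-NC 1 or LV-NC 2 and to 1 without LV-SNORA28 2 or LV-SNORA28 3. The part of proliferation in the HMG values was not tested.

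Of 12 genes of the extracellular HMGB1 axis, its receptors and their partners, 5 were tested and 1 was called: CD24, a surface glycoprotein that binds HMGB1, rose from 1.75 ± 0.0265 to 2.63 ± 0.251 FPKM (log2 fold change 0.40, SE 0.08, adjusted p = 0.0356), and was not called when any 1 library was left out. The median of the 5 was 0.21, and 5 genes are too few to compare with the share of all genes. Among the 9 epithelial markers tested 0 were called in either direction by limma, with 1 at an unadjusted p below 0.05, and KRT19 and KRT18 had log2 fold changes of -0.03 and -0.11. For the 3 tested markers of other cell types these counts were also 0 and 1.

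**Figure D4:**
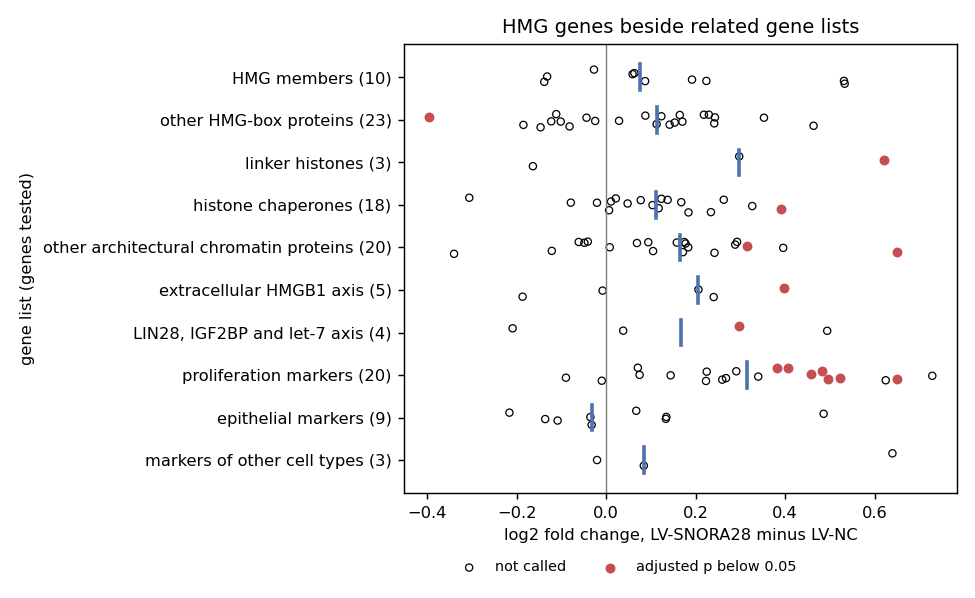
Log2 fold change (LV-SNORA28 minus LV-NC) of every tested gene of the HMG list and of 9 comparison lists, with the number tested in brackets; filled points had an adjusted p below 0.05, open points did not, and blue lines are list medians. The HMG genes have 0 filled points and a median of 0.07, and the proliferation markers have 7 filled points, all above 0.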

How the data were processed

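Total RNA of 6 HCT116 libraries was selected with oligo(dT), and sequenced as strand-marked paired reads of 150 bases. The deposited files hold FPKM per Ensembl gene, computed by the authors; the submitters' processing notes name cutadapt 1.9, HISAT2 2.2.1, StringTie 2.1.6, DESeq2, edgeR and hg38, and the annotation release is not given in the sources used here. Values under short genes were not whole multiples of 1 read, so depth is unknown and no count test was run. The FPKM step of 1 read was searched per library, and at the best step 39.4% to 46.8% lay within 0.1 of a whole number. Chance gives 20% for 1 fixed step, and the chance level for the best of the steps searched was not computed. Genes above 0 numbered 24231 to 25771 per library. Symbols came from GENCODE v44 (60401 of 60612 genes).

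Genes averaging 1 FPKM or more (12076) were tested on log2(FPKM + 1) with limma 3.58.1 (R 4.3.3, trended empirical Bayes), with Benjamini-Hochberg adjustment over all of them; a gene was called at adjusted p below 0.05. The script was tested on simulated data. Errors are SD over 3 libraries. All 10 HMG genes are named, as are their 8 pseudogenes of highest mean, the 3 genes nearest to HMGB1 in profile, and per list up to 2 called genes of largest change in each direction, or the 2 highest where none was called. Genes below the minimum, and CDX2, DES, THSD4-AS1 and the HMGA2 antisense genes, were named after their values were seen. Genes on the strand opposite a pseudogene, and C2orf81, were named after the pseudogene results were seen. The members and lists were chosen with earlier results of these data known. Sequences were read from GENCODE v44 and GRCh38 and aligned with Biopython 1.88. The alternatives changed normalization, filter, pseudocount, variance trend, a replicate block and the libraries used.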

Additional observations from a re-analysis of the deposited data

How the results depend on the processing

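Calls over all genes fell from 1076 to 397 with no filter on low FPKM, where 32761 genes were tested, and ranged from 279 to 628 when 1 library was left out. HMG members called rose from 0 to 1 (HMGB1, adjusted p = 0.0497) with a minimum mean of 5 FPKM, where fewer genes were tested and HMGN5 has no value, and ranged from 0 to 1 over the leave-one-out fits. Members at the study's threshold rose from 0 to 1 with a pseudocount of 0.1 and ranged from 0 to 2 in those fits, with 2 without LV-NC 2 and without LV-SNORA28 1. Some uncalled differences changed sign, and the cause was not tested. With quantile normalization the log2 fold changes were 0.0355 for HMGA1, -0.0091 for HMGN1, -0.0112 for HMGN2, 0.0228 for KRT19 and -0.0491 for HMGA1P3. With pseudogenes summed into their genes, a setting chosen after seeing the data, they were -0.146 for HMGN1 and -0.0376 for HMGN2. That setting sums FPKM and not fragments, so short copies weigh more. The log2 fold changes with 1 library left out were -0.213 to 0.303 for HMGB2, -0.345 to 0.245 for HMGA2, -0.0988 to 0.153 for HMGN2, -0.0742 to 0.0154 for KRT19, -0.0995 to 0.106 for COL1A1, -0.133 to 0.262 for HMGB1P6, -0.00882 to 0.552 for HMGB1P5, -0.0504 to 0.668 for HMGB1P10 and -0.0196 to 0.093 for HMGA1P3. The differences in summed FPKM moved by less than 1 SD between libraries in every alternative, but 2 of the 3 changed sign: that of HMGB genes, 25.4, was -4.43 without LV-NC 1 and 6.25 without LV-SNORA28 3, and that of HMGN genes, 8.54, was -4.46 with pseudogenes added and -0.103 without LV-SNORA28 2. That of HMGA genes, -99.5, was -55.9 without LV-NC 2.

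The replicate numbers are shared by the groups, but same-numbered libraries did not deviate together (r = -0.04, 0.09 and 0.01 across genes), so they were not treated as pairs. Blocking on replicate number, 510 genes were called, 481 of them also without the block, and 0 HMG members.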
